A study of Mus musculus with 47 samples.

Results

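The 10 immediate early genes Fos, Fosb, Jun, Junb, Egr1, Egr2, Egr3, Atf3, Ier2 and Ier3 were followed by name through 26 bulk RNA libraries of mouse B78-D14 melanoma. They are 10 of the 56748 genes counted, and all 10 passed the filter on low counts in cultures and in tumors. The series asks how truncating mutations of mitochondrial DNA in Mt-Nd5, a complex I subunit, alter melanoma cells and the tumors they form. B78-D14 is an amelanotic derivative of the B16 melanoma of C57BL/6 mice that lacks Cdkn2a, and every group carries that background. Edited lines were sorted populations made with DdCBE, a base editor directed to mitochondria, which introduced a G-to-A change at mtDNA position 11,944 or 12,436 into a share of the mtDNA copies, called the heteroplasmy. In culture, 4 libraries of m.11,944 60% cells and 4 of control cells were compared, all untreated. In tumors, 7 libraries of m.12,436 60% tumors, 7 of m.12,436 40% tumors and 4 of control tumors were compared. The tumors were subcutaneous grafts in male C57BL/6 mice, of an age that the study's sources give differently, were untreated and were taken at the endpoint size, and a fragment of each was stored in RNAlater, whereas cultures were frozen as pellets. The labels number the cultures 1 to 4 without saying what separates them, so p-values measure the spread between these libraries. The cultures carried a mutation that none of the tumors analysed here carried, so no effect of 1 mutation was followed from culture to tumor.

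Immediate early genes are transcribed within minutes of a stimulus from factors that the cell already holds, without new protein synthesis. Growth factor signals reach them through the ERK MAP kinases and the transcription factor SRF, which binds CArG boxes, and cAMP and stress signals through CREB and ATF factors, which bind cAMP response elements (CRE). Their products include the AP-1 subunits Fos, Fosb, Jun and Junb, the zinc finger factors Egr1, Egr2 and Egr3, the stress-induced factor Atf3, and the growth and survival regulators Ier2 and Ier3. Handling, serum and dissociation are known to induce them in many tissues.

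These elements are present in the promoters of several members. In the 500 bases before the annotated start of the canonical transcript (GRCm39, GENCODE M39), searched on both strands, a CArG box was found in 4 of the 10 members, Fos, Fosb and Egr2 among them, against 2.78% of 21617 protein-coding promoters. The CRE half-site TGACGT was found in 7 of 10, Fos, Fosb, Jun, Egr2 and Ier2 among them, against 9.26%, and the full CRE TGACGTCA, which contains the half-site on both strands, in Ier2 alone against 1.95%. The AP-1 site TGANTCA was found in Fos alone (12.4% of all promoters) and the EGR site GCGNGGGCG in Fosb and Jun (5.44%). No match was found for Junb, Atf3 or Ier3, which says only that these letters were not in the window. A match is not a bound site. A selection of the windows is given, from AP-1 subunits, Egr2 and Ier2, as examples of the elements named. Capitals mark the CArG box or, where named, the CRE or its half-site (on either strand), and each run reads 5′ to 3′ on the gene's strand.
Fos CArG box, chr12:85520340-85520379, plus strand: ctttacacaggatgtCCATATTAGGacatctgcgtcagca
Fos CRE half-site, chr12:85520583-85520618, plus strand: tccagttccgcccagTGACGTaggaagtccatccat
Fosb CArG box, chr7:19044218-19044257, minus strand: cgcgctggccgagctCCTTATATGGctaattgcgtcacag
Egr2 distal CArG box, chr10:67373309-67373348, plus strand: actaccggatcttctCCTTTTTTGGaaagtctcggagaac
Egr2 proximal CArG box, chr10:67373612-67373651, plus strand: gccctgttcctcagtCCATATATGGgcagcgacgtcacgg
Jun CRE half-site, chr4:94940743-94940778, minus strand: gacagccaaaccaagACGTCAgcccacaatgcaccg
Ier2 CRE, chr8:85389504-85389541, minus strand: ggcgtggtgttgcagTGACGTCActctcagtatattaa
The proximal CArG box of Egr2 began 65 bases before its start and the distal box 368 bases before it, and 2 or more CArG boxes were found in 0.0601% of all promoters.

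Between 16475735 and 36173502 reads per library were counted on genes. Values are CPM, the reads of a gene relative to the library total after TMM scaling, and the same gene is compared between libraries on that scale. Between genes, levels are given per kilobase of exon. In control cells Jun was highest, with 69.7 ± 16.9 CPM per kb (SD, n = 4), followed by Ier3 (46.9 ± 22.9), Ier2 (36 ± 9.33) and Junb (35.0 ± 16.5). Ier3, Ier2 and Junb overlapped with one another within their spread, and Jun overlapped with Ier3 but not with Ier2 or Junb. Fos (0.554 ± 0.621), Fosb (0.551 ± 0.344) and Egr2 (0.375 ± 0.391) were the lowest. Fos rested on 3 to 87 reads and Egr2 on 3 to 70 reads per control culture, so their fold changes in culture are imprecise. In control tumors the order began with Jun (108 ± 7.75 CPM per kb) and Junb (78.9 ± 12.9) and ended with Fosb (0.877 ± 0.193) and Egr2 (0.864 ± 0.0645), while Fos stood at 5.65 ± 1.13. Of 6 melanocyte lineage markers, Mitf and Pmel were detected in every library, Pmel with at most 11 reads in a culture. In the cultures Tyr had 0 reads, Sox10 at most 9 and Dct at most 10, so the labelled cell type rests on few of its defining markers in these amelanotic cells. Control tumor 3 stood apart, with a summed 63.7 CPM of these markers against 22.4, 25.3 and 26.7 in control tumors 1, 2 and 4. The 4 leukocyte markers together gave 0.658 to 1.26 CPM in the cultures.

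The cultures fell into 2 sets by number. Cultures 1 and 2 of either line differed from cultures 3 and 4 far more than from each other: with counts compared gene by gene, the chi-square per degree of freedom was 13.96 between control cultures 1 and 2, 50.21 between 3 and 4, and 227.89 to 316.02 across the sets. No pair of cultures agreed within counting noise. The labels do not say what the numbers stand for. Results are therefore given for all 4 pairs, with the culture number as a block, and within each set.

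Egr1 and Egr2 differed between the sets in both lines, and Egr3 differed between the sets in control cells only. All 3 genes differed between the lines in cultures 1 and 2, but not in cultures 3 and 4. Egr1 stood at 53.3 and 53.5 CPM in control cultures 1 and 2 and at 3.44 and 5.53 in control cultures 3 and 4. In m.11,944 60% cells it stood at 15.7 and 13.8 CPM in cultures 1 and 2 and at 3.45 and 4.79 in cultures 3 and 4. Control cultures 1 and 2 were thus alone at the high level, the edited cultures of the same numbers lay between, and the 4 cultures numbered 3 and 4 overlapped at the low level. Egr2 had the same order, with 2.56 and 2.29 CPM in control cultures 1 and 2, 0.431 and 0.489 in the edited cultures 1 and 2, and 0.0853 to 0.219 in the 4 cultures of the other set. Egr3 varied less, with 31.5 and 31.5 CPM in control cultures 1 and 2, 21.9 and 17.4 in the edited cultures 1 and 2, and 21.2 to 24.5 in the other 4. Both edited cultures of the first set lay below their controls for all 3 genes.

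**Figure D1:**
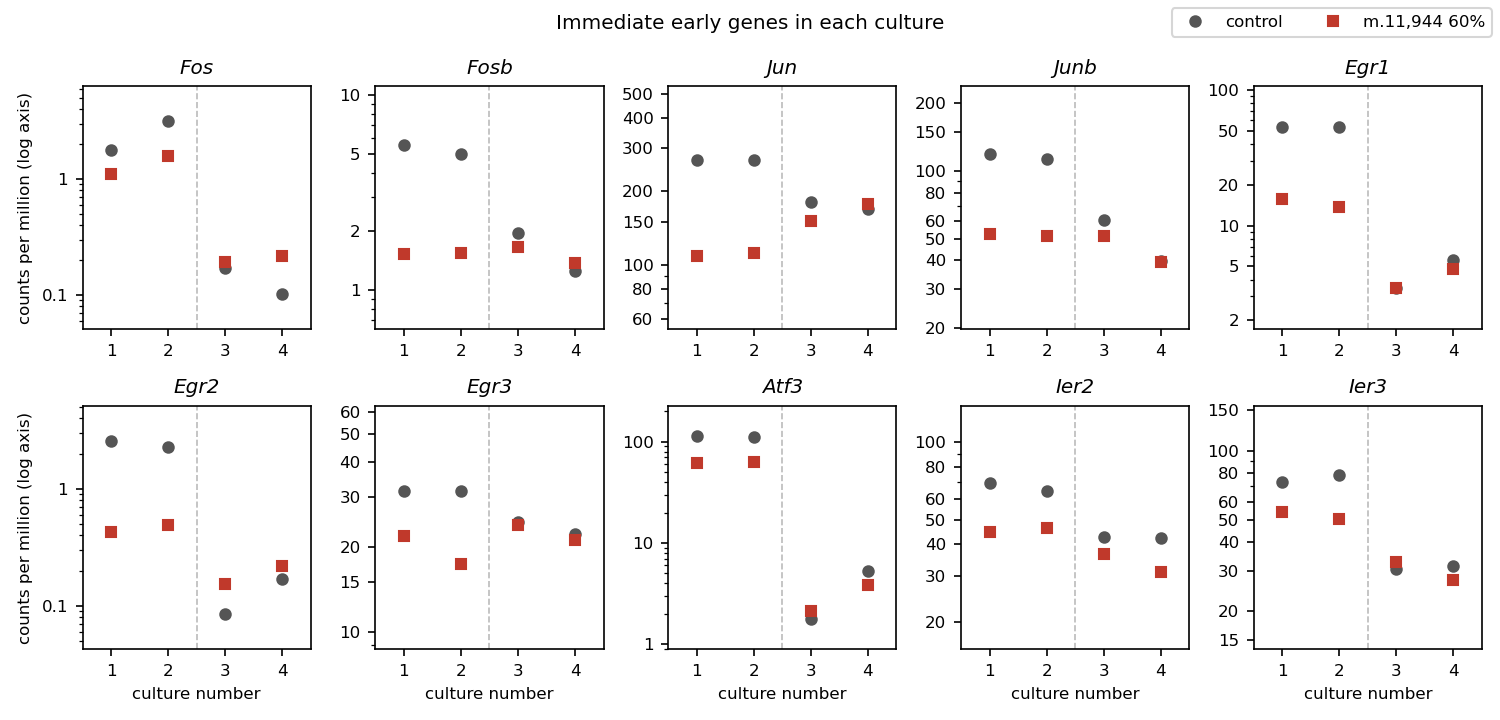
CPM (log axis) of the 10 genes in each of the 8 cultures, by culture number, with control cells as grey circles and m.11,944 60% cells as red squares. A dashed line divides cultures 1 and 2 from 3 and 4. Control cultures 1 and 2 hold the highest values of every gene, and the 2 lines lie close together in cultures 3 and 4.

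Among the AP-1 subunits, Jun stood at 268 and 270 CPM in control cultures 1 and 2 and at 109 and 112 CPM in the edited cultures 1 and 2. In cultures 3 and 4 it stood at 182 and 170 CPM in control cells and at 152 and 178 CPM in edited cells. Jun was therefore highest in one line and lowest in the other within the first set, with the second set between them. Junb stood at 120 and 114 CPM in control cultures 1 and 2 and at 52.7 and 51.5 in the edited ones, against 60.5 and 39.9 in control and 51.2 and 39.5 in edited cultures 3 and 4. Fosb stood at 5.56 and 4.98 CPM in control cultures 1 and 2, while all other cultures lay between 1.26 and 1.96. Fos stood at 1.79 and 3.16 CPM in control and at 1.10 and 1.58 CPM in edited cultures 1 and 2, and at 0.102 to 0.219 in the other 4. For Fos and Fosb, control cultures 1 and 2 were again above all others, and Junb of edited cells differed little between the sets.

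Atf3 had the widest range of the members in the cultures, taken as the ratio of its highest to its lowest value. It stood at 113 and 112 CPM in control and at 61.0 and 63.4 CPM in edited cultures 1 and 2, and at 1.79 to 5.29 CPM in cultures 3 and 4 of both lines. Ier2 stood at 69.4 and 64.6 CPM in control and 44.8 and 46.2 CPM in edited cultures 1 and 2, against 42.9 and 42.3 in control and 36.8 and 31.2 in edited cultures 3 and 4. Ier2 was the one member whose edited culture lay below its same-numbered control in all 4 pairs without overlap within either set. Ier3 stood at 73.4 and 78.5 CPM in control and 54.3 and 50.4 CPM in edited cultures 1 and 2, and at 27.3 to 32.6 CPM in the other 4.

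Over all 4 pairs of cultures, the 10 members had log2 fold changes below 0 in m.11,944 60% cells, from −1.97 (Egr2) to −0.38 (Egr3 and Ier3) with a median of −0.77, against a median of −0.004 over all genes, of which 51.0% were below 0. The groups overlapped for all 10 members, and 3.48% of all genes had groups that did not. None passed an adjusted p of 0.1 in edgeR's quasi-likelihood test with Benjamini–Hochberg adjustment over 12930 genes, where 0.0387% of genes were called. At an unadjusted p under 0.05, 4 members were lower (Fosb, Jun, Junb and Egr3), against 2.27% of all genes, and DESeq2 and limma-voom also called no member. Same-numbered cultures of the 2 lines deviated together across genes, and pairing by number was not separated from the split into sets. With the culture number as a block, 3 members were called lower: Ier2 (log2 fold change −0.44 ± 0.08 SE, adjusted p = 0.0288), Atf3 (−0.65 ± 0.14, adjusted p = 0.0553) and Egr2 (−1.71 ± 0.47, adjusted p = 0.0848), all from edgeR. Egr1 missed the threshold in that edgeR fit (−1.16 ± 0.33, adjusted p = 0.101). The same fit called 7.11% of all genes and 4.09% as lower.

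Within cultures 1 and 2, all 10 members lay lower in both edited cultures than in both control cultures, against 31.3% of all genes in this comparison of 2 with 2. In a fit of the 4 combinations of line and set, chosen after the data had been seen, 8 members were called lower, and edgeR called 5.89% of all genes as lower and 12.4% in either direction. The largest falls were those of Egr2 (−2.39 ± 0.31 SE, 5.22-fold, adjusted p = 0.00476), Egr1 (−1.86 ± 0.20, 3.62-fold, adjusted p = 0.00261), Fosb (−1.78 ± 0.25, 3.42-fold, adjusted p = 0.00714) and Jun (−1.28 ± 0.10, 2.43-fold, adjusted p = 0.000687), from edgeR with adjustment over all genes. Junb fell by 1.16, Egr3 by 0.68, Ier2 by 0.56 and Ier3 by 0.54 on the log2 scale. Fos (−0.88 ± 0.33, adjusted p = 0.143) and Atf3 (−0.86 ± 0.34, adjusted p = 0.186) did not pass edgeR's test. Leaving out a culture of the set leaves 1 library in that arm, whose spread is then taken from the other groups. Without edited culture 1 or 2, 3 members were called, and without control culture 1 or 2, 4 and 5. Without edited culture 3 or 4, 8 were called, and without control culture 3 or 4, 10 were. Jun and Egr1 were called in each of these 8 fits, in which 73 to 3672 genes were called in all. The values moved little for some members, from −2.48 to −2.30 for Egr2 and from −1.22 to −1.12 for Junb. Others moved more, from −1.24 to −0.44 for Fos and from −0.86 to −0.52 for Egr3.

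Within cultures 3 and 4, no member was called by edgeR, where 0.162% of all genes were, and 1 member, Ier2, had an unadjusted p under 0.05 (7.36% of all genes). The log2 fold changes ran from −0.33 (Ier2) to 0.60 (Egr2), with a median of −0.09. Leaving out control culture 4 gave 2 calls, Junb and Ier2, among 2432 genes called. The difference between the sets was tested as an interaction of line and set. It was called for Jun (−1.19 ± 0.14 SE, adjusted p = 0.0213) and Egr1 (−1.76 ± 0.30, adjusted p = 0.0842) by edgeR, against 0.325% of all genes, and was below 0 for all 10 members and for 47.9% of all genes. Its calls depended on which culture was left out: both were lost without any one of the cultures 1 and 2 of either line. In those fits the values themselves hardly moved, from −1.21 to −1.17 for Jun and from −1.85 to −1.66 for Egr1. Without a culture 3 or 4 of either line they ran from −1.32 to −1.07 for Jun and from −2.14 to −1.46 for Egr1.

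**Figure D2:**
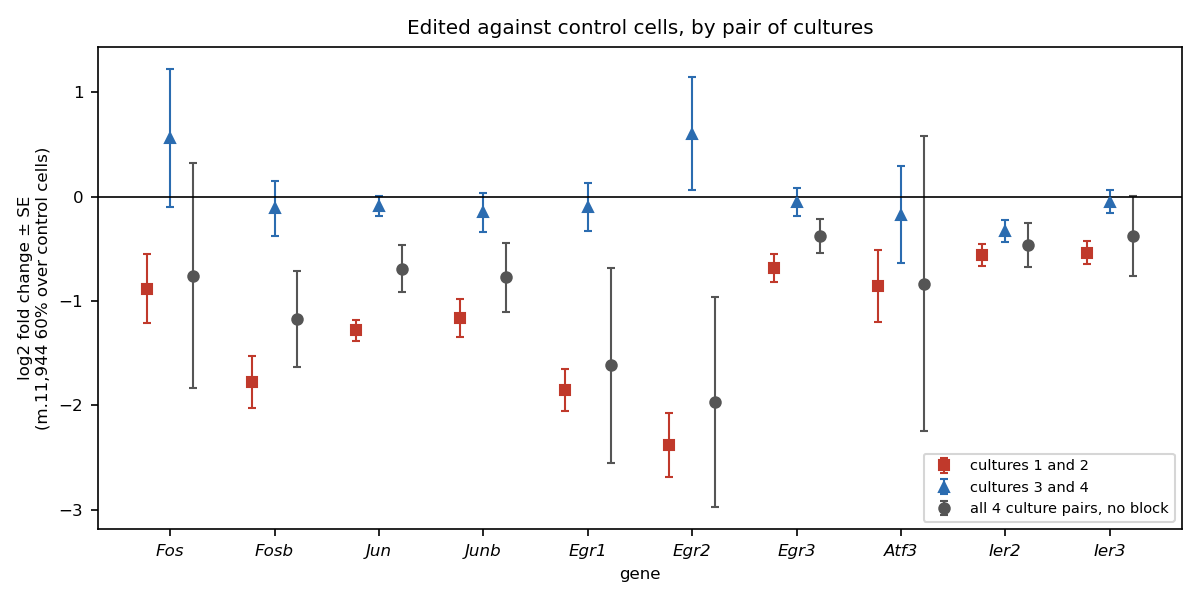
Log2 fold change of m.11,944 60% over control cells with its standard error for each gene, within cultures 1 and 2 (red squares), within cultures 3 and 4 (blue triangles) and over all 4 pairs without a block (grey circles). The red squares lie below 0 for all 10 genes, from −2.39 to −0.54, and the blue triangles lie between −0.33 and 0.60.

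Between the sets, 8 members were called lower by edgeR in cultures 3 and 4 than in cultures 1 and 2 with the line as a covariate, but not Jun (−0.02 ± 0.22 SE) or Egr3 (−0.12 ± 0.13). The split was known when it was tested, and 34.1% of all genes were called as lower and 68.3% in either direction, so the count is a description. Atf3 was 25.8-fold, Fos 10.6-fold, Egr2 8.05-fold and Egr1 6.68-fold higher in cultures 1 and 2, while Ier3 was 2.07-fold, Fosb 1.95-fold, Junb 1.64-fold and Ier2 1.45-fold higher. In control cells alone, all 10 members were called as higher in cultures 1 and 2 (29.8% of all genes), Atf3 by 32.4-fold and Jun by 1.53-fold. In edited cells alone, 6 members were called as higher (26.3% of all genes), Jun was 1.49-fold lower in cultures 1 and 2 (adjusted p = 0.00144 from edgeR, with 26.1% of all genes called lower), and Fosb, Junb and Egr3 were not called, with log2 fold changes of 0.04, 0.20 and −0.20. Jun thus moved in opposite directions between the sets in the 2 lines.

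The neighbouring pathway genes were examined in the same fits. Of 34 other early response genes tested in cells, 20 (of all genes, 34.1%) were called lower and 5 (of all genes, 34.2%) higher in cultures 3 and 4. Ppp1r15a, which relieves the block on translation in the integrated stress response, was 15.2 ± 0.908 CPM (SD, n = 4) in cultures 3 and 4 and 435 ± 165 CPM in cultures 1 and 2. Klf4, an early response factor, was 4.77 ± 0.839 against 19.7 ± 1.22 CPM. Of 8 heat shock genes tested, 7 were called higher in cultures 3 and 4 and none lower, among them Hspa1b (4.81 ± 1.28 against 0.606 ± 0.0805 CPM) and Hsph1 (247 ± 39 against 98.9 ± 4.76 CPM). The 7 called heat shock genes thus moved in the direction opposite to the 8 members called between the sets, which left out Jun and Egr3. The difference between the lists was not tested. Of 13 genes of ERK feedback and ERK targets, 7 were called lower and 2 higher, beside the same shares of all genes.

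Between the lines within cultures 1 and 2, 16 of the 34 other early response genes and 7 of the 13 ERK feedback and target genes were called lower by edgeR, and 1 and 0 higher, beside 5.89% of all genes lower and 6.53% higher. Plk3, a stress-responsive kinase, was 42.2 ± 3.57 CPM in edited and 129 ± 0.721 CPM in control cells (SD, n = 2), Ppp1r15a 293 ± 14.5 and 578 ± 8.67 CPM, and Maff, a small Maf factor, 14.8 ± 0.244 and 32.3 ± 1.80 CPM. Of the ERK genes, Spry4, an inhibitor of receptor tyrosine kinase signals, was 58.7 ± 1.37 CPM in edited and 138 ± 9.60 in control cells, and Dusp5, a phosphatase of ERK, 16.0 ± 0.904 and 46.9 ± 1.40 CPM. None of the 10 genes for SRF, its cofactors and CREB factors was called in either direction. Of the 17 genes of the MAPK cascade, 3 were called lower and 1, Map2k1 (MEK1), higher. Over all 4 pairs without a block, none of the genes in these lists was called. With the block, 8 of 34 early response genes, 5 of 13 ERK genes and 2 of 17 cascade genes were called lower and none higher, beside 4.09% of all genes lower.

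Junb and Ier2 lie on chromosome 8. With the block, 12.2% of the 711 genes tested on chromosome 8 were called lower in edited cells, against 4.09% of all genes, and their median log2 fold change was −0.08. Chromosome 16 had the highest share, with 15.7% of 401 genes, and holds none of the members. Within cultures 1 and 2 the median of chromosome 8 was −0.09, beside a change of −1.16 for Junb and −0.56 for Ier2. The part of chromosome 8 in these 2 differences was not tested.

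In tumors the members were more alike between groups. A tumor fragment holds host cells as well as melanoma cells, so that fewer cells of a type and less RNA per cell cannot be told apart. Against the 4 control tumors, all 10 members had log2 fold changes above 0 in m.12,436 60% tumors, from 0.03 (Ier3) to 0.68 (Egr2) with a median of 0.18, against 49.4% of all genes above 0. In m.12,436 40% tumors 9 of the 10 were above 0, from −0.04 (Ier3) to 0.62 (Fosb) with a median of 0.18, against 51.3% of all genes above 0. Both comparisons used the same control tumors and are not independent. No member was called by edgeR in either comparison or between 60% and 40% tumors, where 2.31%, 0% and 1.81% of 16213 genes were called. Between 40% and control tumors, where edgeR called 0 genes in all, 825 genes (5.09%) reached an unadjusted p of 0.05 and none of the members did. DESeq2 called 5 genes there and limma-voom 0. The groups overlapped for all 10 members between 60% and control tumors, where 4.07% of all genes did not overlap. The other tools also called no member in the 3 comparisons of tumors.

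Egr2, which in macrophages and lymphocytes is also an inducible regulator, had the largest difference of the members in 60% tumors. It stood at 2.74, 3.00, 3.23 and 2.80 CPM in the control tumors. In 60% tumors the lowest value was 2.05, the median 5.02 and the highest 6.94 CPM, and in 40% tumors 2.88, 3.02 and 4.42 CPM. Of the 7 tumors of the 60% group, 5 lay above every control and 2 within or below the control range. The log2 fold change of 0.68 ± 0.26 (SE) had an unadjusted p of 0.0175 and an adjusted p of 0.205 in edgeR's test, and 8% of all genes were higher at an unadjusted p under 0.05. Without 60% tumor 5, the lowest, it rose to 0.80 ± 0.22 and was called (adjusted p = 0.0937 from edgeR). Against 40% tumors the difference was 0.48 ± 0.22 (unadjusted p = 0.0408, adjusted p = 0.329 from edgeR), with 6.97% of all genes higher at an unadjusted p under 0.05.

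With group means taken away, markers of several leukocyte types moved with Egr2. The 4 leukocyte markers summed to 606 to 949 CPM in 60% tumors, 438 to 645 in control tumors and 464 to 607 in 40% tumors, with no marker at 0. The 5 macrophage markers summed to 786 to 1350 CPM in 60% tumors, 851 to 1080 in control tumors and 826 to 1070 in 40% tumors. Over the 18 tumors with group means taken away, Egr2 correlated with the macrophage sum at r = 0.776 (rho = 0.719), and at r = 0.598 without the 2 tumors farthest from the median. Within the 7 tumors of the 60% group r was 0.919, within the 7 of the 40% group 0.276 and within the 4 control tumors 0.0844. The other 9 members had r between −0.435 and 0.349 with the same sum. Egr2 also had r = 0.646 with the sum of 6 T and NK cell markers, 0.594 with the leukocyte markers and 0.532 with the neutrophil markers. Its r was −0.551 with the fibroblast and −0.456 with the endothelial cell markers. The neutrophil sum was 9.71 to 26.7 CPM in 60% tumors, 12.6 to 29.4 in control tumors and 10.4 to 38.6 in 40% tumors, so it was not raised with Egr2 in 60% tumors. The T and NK cell sum ranged over 8.37 to 47.1 CPM in 60% tumors (median 23.4), 7.57 to 23 in control tumors (median 14.3) and 5.89 to 18.8 in 40% tumors (median 14.2). The part of these cells in the level of Egr2 was not tested. In the cultures, C1qa and C1qb were at 0 reads in both lines and the macrophage sum was 1.39 to 2.11 CPM.

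**Figure D3:**
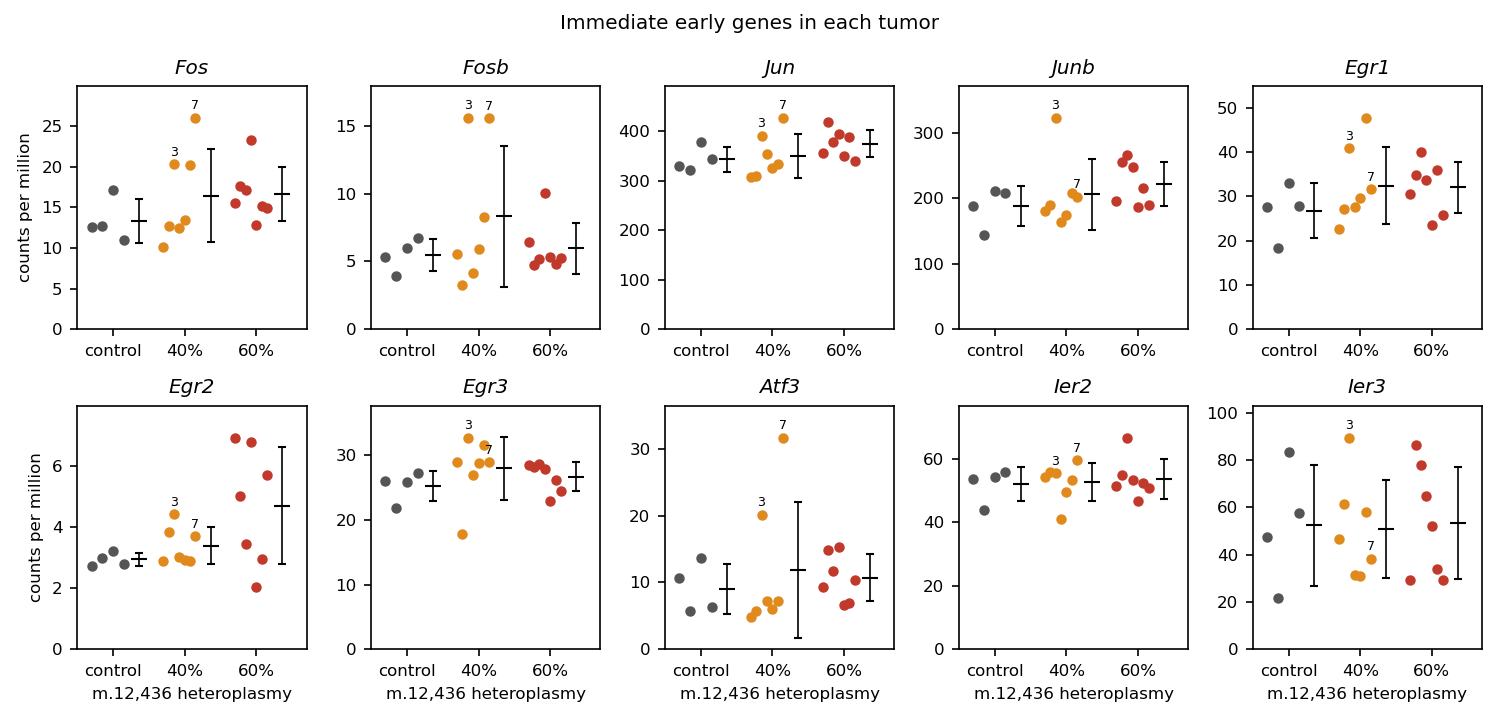
CPM of the 10 genes in each tumor (points) with the mean and SD of each group (black bars), for 4 control, 7 m.12,436 40% and 7 m.12,436 60% tumors. The 40% tumors 3 and 7 are numbered, and stand at 15.6 CPM of Fosb, above all other tumors.

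Fosb and Atf3 varied most among 40% tumors, and there 2 tumors set the spread. Fosb stood at 5.30, 3.90, 5.99 and 6.72 CPM in control tumors. In 40% tumors its lowest value was 3.30 and its median 5.90 CPM, while tumors 3 and 7 both stood at 15.6. Atf3 stood at 10.7, 5.73, 13.6 and 6.26 CPM in control tumors, had a median of 7.17 in 40% tumors, and stood at 20.2 in tumor 3 and 31.7 in tumor 7. Tumor 3 also had the highest Junb of all tumors, at 323 CPM, and tumor 7 the highest Fos, at 26.0 CPM, and the highest Jun, at 427 CPM. Without these 2 tumors, the 40% log2 fold change of Fosb against control tumors went from 0.62 to 6.51e-05, that of Atf3 from 0.39 to −0.55, and those of Jun, Junb and Ier2 also turned below 0. Against 60% tumors, Atf3 went from −0.15 to 0.79, Fosb from −0.49 to 0.13 and Egr1 from −0.02 to 0.05. No member was called in either form. Tumor 3 had the highest neutrophil marker sum of its group, at 38.6 CPM, against 18.4 CPM in tumor 7 and 10.4 CPM in the lowest, and the part of neutrophils was not tested.

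The remaining members overlapped widely between groups. Fos stood at 12.5, 12.7, 17.2 and 10.9 CPM in control tumors, between 12.9 and 23.3 with a median of 15.5 in 60% tumors, and between 10.1 and 26.0 with a median of 13.5 in 40% tumors. Jun ranged from 321 to 377 CPM in control, 339 to 419 in 60% and 307 to 427 in 40% tumors. Ier2 had nearly the same mean in the 3 groups, with 52.0 ± 5.46 CPM in control (SD, n = 4), 53.7 ± 6.27 in 60% (n = 7) and 52.8 ± 5.94 in 40% tumors (n = 7). Ier3 ranged over 21.4 to 83.2 CPM within the control tumors alone, wider than any difference between the group means.

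Among the other lists, 2 of the 36 early response genes were called higher in 60% than in control tumors and none lower, beside 2.31% of all genes. Dusp2, a phosphatase of MAP kinases, was 31 ± 2.06 CPM (SD, n = 7) against 22.4 ± 3.18 (n = 4), with a log2 fold change of 0.47 ± 0.09 (SE) and an adjusted p of 0.0154 from edgeR. Klf4 was 21.8 ± 2.55 against 14.6 ± 1.37 CPM, with 0.58 ± 0.16 and an adjusted p of 0.0977 from edgeR. Dusp2 was also called higher in 60% than in 40% tumors (0.27 ± 0.07, adjusted p = 0.0991 from edgeR). Map2k3, a kinase upstream of p38, was called lower in 60% than in 40% tumors, with 74.1 ± 4.5 against 91.5 ± 7.63 CPM (log2 fold change −0.30 ± 0.05, adjusted p = 0.0132 from edgeR), and was the only one of 17 cascade genes called. None of the 13 ERK, 10 SRF and CREB or 9 heat shock genes was called in any of the 3 tumor comparisons.

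Within groups, most members varied together from tumor to tumor. Over the 18 tumors with group means taken away, all 45 pairs of members had a positive Pearson r in log2 CPM, with a median of 0.474 and 21 pairs over 0.5. Over all pairs of 12317 genes with a mean log2 CPM of at least 1, 50.2% were positive and 8.19% were over 0.5. All values share the same libraries, so these are descriptions with n = 18 and no test. The highest were Jun with Atf3 (r = 0.856, rho = 0.818), Fos with Atf3 (r = 0.850, rho = 0.858) and Junb with Ier3 (r = 0.825, rho = 0.862). Without 40% tumors 3 and 7 the median was 0.436, Jun with Atf3 stood at 0.635, Fosb with Jun at 0.202 (0.657 with them), Junb with Ier3 at 0.876, and Egr2 with Ier3 was below 0 (−0.0468). Without the 2 tumors farthest from the median of the first gene, Egr2 with Egr3 was below 0 (−0.111). Egr2 stood apart, with r from 0.0448 (Ier3) to 0.463 (Atf3) with the other members.

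The 5 other genes most like Fos over the same tumors, of 12307 with a mean log2 CPM of at least 1, were Ackr3 (r = 0.799), a scavenging chemokine receptor, Gm49980 (0.784), Sertad1 (0.771), a regulator of the cell cycle, Clec4e (0.760), a lectin receptor of myeloid cells, and Prelid2 (0.744). Without 40% tumors 3 and 7 these values were 0.700, 0.574, 0.827, 0.750 and 0.575. The summed neutrophil markers had r = 0.737 with Fos, and between 0.274 and 0.601 with the other 9 members.

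**Figure D4:**
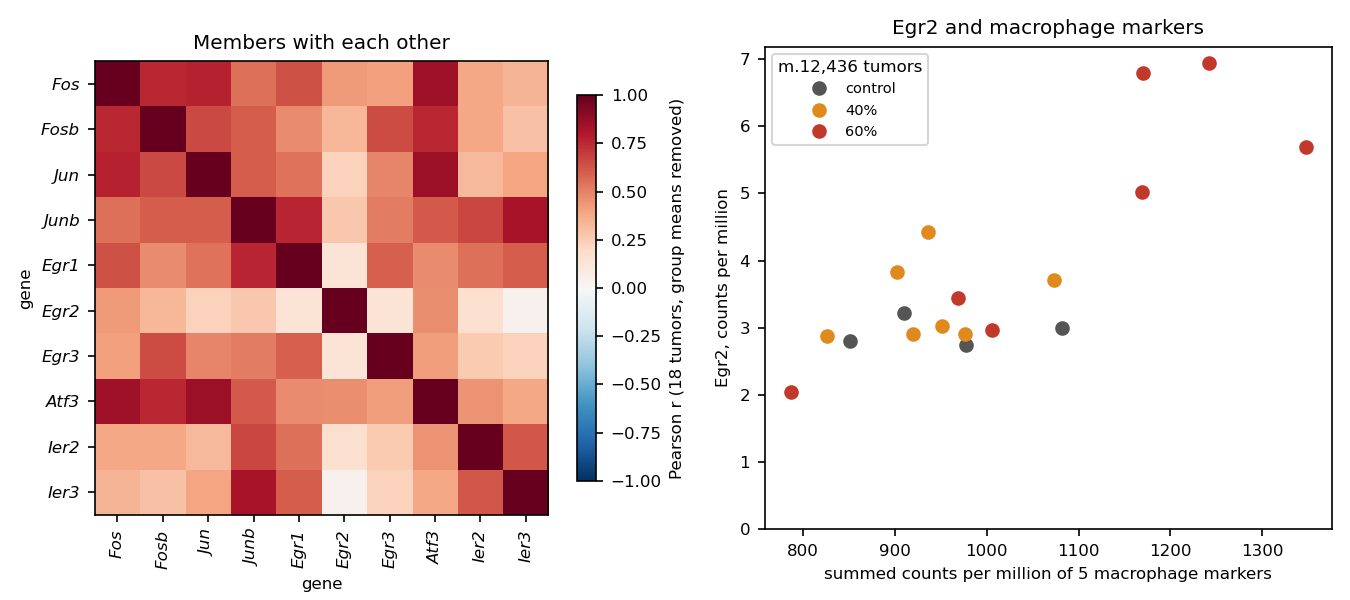
Left, Pearson r between each pair of members over 18 tumors with group means removed, from −1 (blue) to 1 (red). All pairs are positive and Egr2 has the palest row. Right, Egr2 in CPM against the summed CPM of 5 macrophage markers, 1 point per tumor, where 4 of the 60% tumors have the highest macrophage sums (1169 to 1348 CPM) and the highest Egr2 (5.02 to 6.94 CPM).

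Control tumors were set beside control cells on 1 common scale. Tissue, collection and sequencing cannot be told apart in this comparison. On that scale Fos stood at 11.4, 11.5, 15.3 and 9.89 CPM in the tumors and at 1.97, 3.44, 0.186 and 0.109 CPM in control cultures 1 to 4, without overlap. Of the 10 members, edgeR called 4 against 65.2% of 15047 genes. Fos (log2 fold change 3.10 ± 0.82 SE, adjusted p = 0.00933) and Junb (0.90 ± 0.33, adjusted p = 0.0388) were higher in tumors by edgeR's test. Egr3 (−0.39 ± 0.15, adjusted p = 0.0529) and Atf3 (−2.95 ± 1.12, adjusted p = 0.0458) were lower, and neither was called by edgeR when control tumor 2 was left out.

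The answer for several members depended on which cultures the tumors were set against. Atf3 stood at 5.22 to 12.2 CPM in the tumors, at 124 and 122 CPM in control cultures 1 and 2 and at 1.96 and 5.69 CPM in control cultures 3 and 4. The tumors lay far below the first set and overlapped with the second. Against cultures 1 and 2 alone its log2 fold change was −3.92 ± 0.32 (SE), and against cultures 3 and 4 alone it was 1.08 ± 0.51. Egr1 likewise went from −1.29 ± 0.19 to 2.29 ± 0.28, with tumor values of 16.6 to 29.6 CPM, and Egr2 from −0.01 ± 0.21 to 4.23 ± 0.39. All but the Egr2 value against cultures 1 and 2 passed an adjusted p of 0.1 in edgeR's test. Fos and Junb were called as higher in tumors against either set, Fos by 2.13 ± 0.27 and 6.25 ± 0.35 on the log2 scale and Junb by 0.39 ± 0.15 and 1.61 ± 0.21. Against each set of cultures other members differed, and 6 members were called against cultures 1 and 2 (77.5% of all genes) and 7 against cultures 3 and 4 (72.6%).

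**Figure D5:**
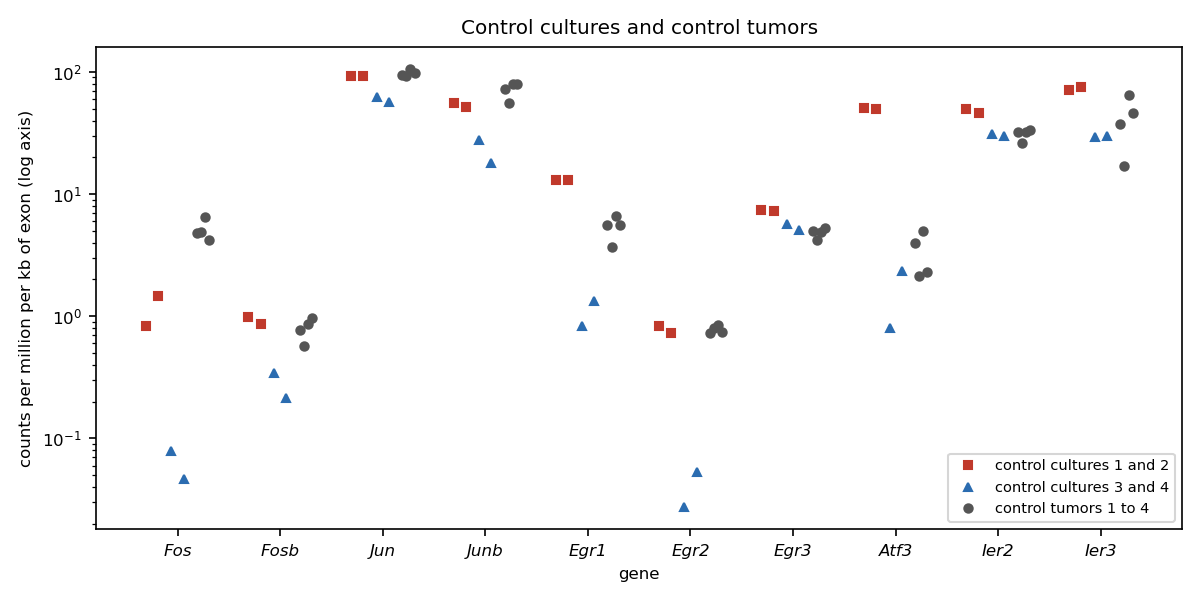
CPM per kilobase of exon (log axis) of the 10 genes in control cultures 1 and 2 (red squares), control cultures 3 and 4 (blue triangles) and control tumors (grey circles), 1 point per library. Fos lies higher in all 4 tumors than in any culture, and Atf3 lies far lower in the tumors than in cultures 1 and 2.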

How the data were processed

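Per the labels and the study's methods, RNA was extracted, made into libraries and sequenced by a commercial provider, and the authors mapped reads by STAR, in 2-pass mode, onto GRCm39 and counted them per Ensembl gene with featureCounts. The strand setting is not given in the sources used here. The authors deposited raw read counts of 56748 genes in 47 columns, without normalization. From the column names and numbers, and for m.11,944 60% cells a heading of the study's source data, 26 columns were matched to a sample, and 21 were not used.

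Counts were analysed with edgeR 4.0.16 in R 4.3.3 (TMM, filterByExpr, robust quasi-likelihood test, two-sided p with Benjamini–Hochberg adjustment over all genes tested, threshold 0.1 as in the study). Standard errors were derived from the test statistic. Cultures and tumors were fitted separately, with 12930 and 16213 genes, and control tumors with control cells in a fit of 15047. A further fit of the 4 combinations of line and culture set (1 and 2, or 3 and 4) gave the values within each set and the interaction. The members, the other lists and the alternatives were chosen with earlier results of these data known. All 10 members are named, with up to 3 called genes of each other list and the 5 genes most like Fos. Correlations used log2 CPM with a prior count of 2. Alternatives were limma-voom (limma 3.58.1), DESeq2 1.42.0, its size factors, other filters, a threshold of 0.05, a block, the 2 groups alone and leaving out each library.

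Across genes, deviations from the group mean correlated at 0.718 to 0.832 between same-numbered cultures of the 2 lines. Between others the mean correlation was −0.264. The deviations of a group cancel out, so the second value follows largely from the first. The others mix cultures of the same set and of different sets, so pairing by number was not told apart from the split into sets. The scripts were tested on simulated data. Gene positions and promoters came from GENCODE M39 and GRCm39, which hold 56017 of the gene identifiers. Some promoter windows are not reported here. The counts rest on reads without molecular identifiers, and intervals from them would cover counting error only.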

Additional observations from a re-analysis of the deposited data

Results flagged for a closer look

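Among 50 tests of the 10 members in the 5 groups, 4 libraries lay far from the rest of their group by the ratio of the gap to the range, and chance gives about 1 in 20. Junb in m.11,944 60% cells had a ratio of 0.9, from culture 4, at 39.5 CPM against 51.2 to 52.7 in the other 3. In tumors the ratio was 0.604 for Fosb in 60% tumor 4 (10.1 CPM), 0.652 for Junb in 40% tumor 3 (323 CPM) and 0.682 for Egr3 in 40% tumor 2 (17.8 CPM).

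The effect of the edited line differed between cultures 1 and 2 and cultures 3 and 4 by the interaction test of edgeR for Egr1, by −1.76 on the log2 scale, and for Jun, by −1.19. Without any one of the cultures 1 and 2 of either line both calls were lost, while the values stayed between −1.85 and −1.66 for Egr1 and between −1.21 and −1.17 for Jun. Egr1 was also not called without edited culture 3 or 4. Without a culture 3 or 4 of either line the values ran from −2.14 to −1.46 for Egr1 and from −1.32 to −1.07 for Jun.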

How the results depend on the processing

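No member of the comparison over all 4 pairs of cultures was called under another normalization, filter, tool or threshold or without any 1 library. With the culture number as a block 3 were called, within cultures 1 and 2 in the fit of 4 combinations 8, and in a fit of those 4 libraries alone 10, which narrows the spread by construction. Within cultures 3 and 4 the log2 fold changes of Fos (0.56) and Egr2 (0.60) turned above 0. Leaving out 1 culture moved Fos between −1.39 and 0.16. Genes called in all numbered 5 there, 0 without any 1 culture, and 0 to 5482 under the others. Of the 60% tumors, leaving out 1 tumor gave 0 to 1 members, the 1 being Egr2.

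In tumors the numbers do not pair the libraries (same-numbered r from −0.346 to 0.159), and the block changed no call. In 40% against control tumors it turned Jun (−0.012), Atf3 (−0.076), Ier2 (−0.0065) and Ier3 (0.18), limma-voom turned Ier3 (0.033), and leaving out tumors 3 and 7, an alternative added after seeing the data, turned Jun (−0.075), Junb (−0.038), Atf3 (−0.55) and Ier2 (−0.031). In 60% against 40% tumors, Atf3 turned with limma-voom (0.096), the block (0.14) and without tumors 3 and 7 (0.79), where Fosb (0.13) and Egr1 (0.050) turned too. Leaving out 1 tumor at a time, values below and above 0 were given by Ier3 (−0.23 to 0.36), Fosb (−0.048 to 0.25) and Ier2 (−0.020 to 0.096) in 60% against control tumors, by Ier2 (−0.042 to 0.078), Ier3 (−0.29 to 0.29), Junb (−9.14e-05 to 0.20), Jun (−0.022 to 0.085) and Atf3 (−0.079 to 0.67) in 40% against control tumors, and by Fos (−0.088 to 0.16), Ier3 (−0.088 to 0.27), Ier2 (−0.040 to 0.056), Egr1 (−0.094 to 0.097) and Atf3 (−0.29 to 0.32) in 60% against 40% tumors. Genes called in all ranged over 66 to 1056, 0 to 5 and 108 to 744 in these 3 comparisons, against 374, 0 and 293.

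In control tumors against control cells, 2 to 5 members were called when 1 library was left out and 7 against cultures 3 and 4 alone, where Egr1 (2.29), Atf3 (1.08) and Ier3 (0.46) turned. Against cultures 1 and 2 alone Fosb (−0.24) and Egr2 (−0.014) turned, and limma-voom turned Egr1 (0.58), which moved between −0.77 and 0.085 when 1 library was left out. Between the sets of cultures, 6 to 8 members were called under every alternative and Jun moved between −0.18 and 0.14. The causes of these changes were not tested. Fos and Egr2 rest on few reads in the cultures, which makes the size of their fold changes there imprecise.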
